A study of Homo sapiens with 7 samples.

Results

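The mitochondrial genome carries its own small set of genes, and 37 of the 57189 rows of the count table belong to it. They were taken as every row whose symbol begins with MT-, which gave 13 protein-coding genes, 2 ribosomal RNA (rRNA) genes and 22 transfer RNA (tRNA) genes. Together they are 15416 bases long on a circular genome of 16569 bases in the GRCh38 build (chrM), and all 37 had enough counts to be tested. RH30, an established alveolar rhabdomyosarcoma line labelled wild type (wt), was grown in RPMI-1640 with serum and profiled by poly(A)-selected RNA sequencing. The methods of the study state that its RH30 cells expressed GFP and luciferase throughout, a modification that the label wt does not name. 4 libraries came from untreated cells and 3 from cells that had received 5 µM BV6 for 24 h. BV6 is a Smac mimetic, a compound that triggers loss of inhibitor of apoptosis proteins and activates NF-κB signaling. Each library carried a BC label: BC11 (untreated only), BC13, BC14 or BC25/27 (both conditions). What this label stands for is not stated, and treating the libraries that share it as the 3 pairs compared here is an assumption.

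Mitochondrial DNA is copied into RNA by a dedicated polymerase, and each strand gives a long precursor that covers most of the circle. In this precursor the tRNAs lie between the mRNAs and rRNAs, and their excision releases the neighboring transcripts. The 13 mRNAs all encode subunits of the respiratory chain and ATP synthase, and the rRNAs and tRNAs serve only the mitochondrial ribosome and its translation. Most mitochondrial mRNAs receive a poly(A) tail, the rRNAs receive a short stretch of A, and tRNAs receive none, so poly(A) selection does not capture the classes equally.

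The compact layout of the genome limits what can be assigned to 1 gene, and the following stretches are shown because the results below turn on them. All are the RNA-like sequence of the heavy-strand transcript, from GRCh38. The end of MT-ATP8 overlaps the start of MT-ATP6 at chrM:8515-8584, where the 46 bases in capitals belong to both genes. The end of MT-ND4L overlaps the start of MT-ND4 at chrM:10748-10778, where 7 bases in capitals are shared. The large rRNA gene MT-RNR2 ends, in capitals, directly before MT-TL1 at chrM:3200-3304. MT-CO1 is followed at chrM:7428-7514 by MT-TS1, which is read from the other strand, so that the capitals mark the complement of this tRNA. A cluster of 3 tRNA genes, MT-TH, MT-TS2 (in capitals) and MT-TL2, separates MT-ND4 from MT-ND5 at chrM:12138-12336. At chrM:14131-14166 the end of MT-ND5, in capitals, abuts the end of MT-ND6, which is read from the other strand.
MT-ATP8/MT-ATP6: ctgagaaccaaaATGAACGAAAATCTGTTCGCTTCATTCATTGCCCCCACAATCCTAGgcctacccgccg
MT-ND4L/MT-ND4: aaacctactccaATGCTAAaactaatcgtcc
MT-RNR2/MT-TL1: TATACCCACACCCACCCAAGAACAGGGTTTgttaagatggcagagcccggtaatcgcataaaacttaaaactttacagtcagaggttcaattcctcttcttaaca
MT-CO1/MT-TS1: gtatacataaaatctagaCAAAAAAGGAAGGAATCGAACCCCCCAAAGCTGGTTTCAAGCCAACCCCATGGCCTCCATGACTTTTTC
MT-TH/MT-TS2/MT-TL2: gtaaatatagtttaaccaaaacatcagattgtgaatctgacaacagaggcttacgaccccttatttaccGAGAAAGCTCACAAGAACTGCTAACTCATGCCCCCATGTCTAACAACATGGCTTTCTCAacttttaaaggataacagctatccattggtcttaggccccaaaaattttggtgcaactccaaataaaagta
MT-ND5/MT-ND6: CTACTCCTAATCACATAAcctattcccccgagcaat

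The libraries held between 54070030 and 77220882 counts, and a count of 3 corresponded to 0.0388 to 0.0555 CPM (counts of a gene scaled to the total of its library), far below every mitochondrial gene. The lowest single count was 64, for MT-TM. BIRC3, an NF-κB target that encodes cIAP2, was at 1.26 to 4.74 CPM in untreated and 52.3 to 102 CPM in BV6-treated libraries, which matched the labels. All 9 rhabdomyosarcoma markers examined, among them MYOD1, MYOG and DES, were detected in every library. Their summed level was 2370 to 3300 CPM in untreated and 1710 to 2710 CPM in BV6-treated libraries, lower with BV6 in all 3 pairs. Single markers differed from the sum. MYOG was lower with BV6 only in BC14, and was higher in BC13 (102 against 78.8 CPM) and in the remaining pair (226 against 209 CPM). In that remaining pair MYOD1 (336 against 311 CPM) and FGFR4 (579 against 547 CPM) were also higher with BV6. Every other marker of this list, DES included, was lower in all 3 pairs. The 4 leukocyte markers summed to 6.46 to 12.7 CPM, nearly all of it NKG7, while PTPRC, CD3E and CD14 stayed below 1 CPM. The endothelial pair PECAM1 and VWF summed to 48.8 to 69.2 CPM in untreated and 26.3 to 58.3 CPM in BV6-treated libraries, nearly all of it PECAM1. VWF did not exceed 1.66 CPM and, unlike the sum, was higher with BV6 in all 3 pairs. The epithelial pair EPCAM and KRT18 did not exceed 0.363 CPM. Whether the marker levels had a part in the mitochondrial values was not tested.

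The genes were first ranked among themselves by their level per kilobase (kb) of gene. MT-CO1, the catalytic subunit of cytochrome c oxidase (complex IV), had the highest mean level of the 15 mRNA and rRNA genes, with 6225 ± 1079 CPM per kb (SD, n = 7), and ranked first in 7 of 7 libraries. MT-CO3, another subunit of complex IV, followed with 4404 ± 840 CPM per kb, and MT-RNR2 with 4118 ± 1085 CPM per kb. MT-CO3 exceeded MT-RNR2 in only 4 of 7 libraries, and MT-RNR2 exceeded the next gene, MT-ATP6, in 4 of 7, so the order of these neighbors was not resolved. The ATP synthase subunits MT-ATP6 and MT-ATP8, which lie on 1 transcript, had 3718 and 3546 CPM per kb. MT-CO2 (3128 CPM per kb) came next, before MT-ND4 (2559 CPM per kb) and MT-ND4L (2306 CPM per kb), complex I subunits that also share a transcript. MT-CYB, the only complex III subunit of this genome, had 2100 CPM per kb. From MT-ATP6 to MT-ND2 each gene exceeded the next in 7 of 7 libraries. The remaining complex I subunits were lowest among the mRNAs, with 1763 for MT-ND2, 1433 for MT-ND1, 1055 for MT-ND3, 1003 for MT-ND5 and 960 CPM per kb for MT-ND6. MT-ND3 exceeded MT-ND5 in 4 of 7 libraries, so these also were not separated. MT-ND6 is read from the other strand. Whether the counting used the strand is not known, so its row may hold reads of the heavy-strand transcript. The small-subunit rRNA MT-RNR1 had only 810 ± 185 CPM per kb and ranked last of the 15 in 7 of 7 libraries. MT-RNR2 and MT-RNR1 are neighbors on the same precursor, yet the level of MT-RNR2 per kb was 5.13 ± 0.99 times that of MT-RNR1 (SD, n = 7).

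The tRNA genes covered a wider range, and the levels of the strands overlapped. The 8 tRNA genes read from the light strand had mean levels of 31.6 to 1710 CPM per kb with a median of 910, and the 14 read from the heavy strand had 29.5 to 665 CPM per kb with a median of 117. MT-TS1, MT-TN and MT-TC, all light-strand genes, had the most counts of the tRNAs. MT-TM and MT-TQ had the least, at 29.5 and 31.6 CPM per kb. Counts on a tRNA row can come from the tRNA or from unprocessed precursor. Since it is not known whether the counting used the strand, reads of any RNA from the opposite strand cannot be told apart either. The plot of levels per length shows the 37 genes in this order.

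**Figure D1:**
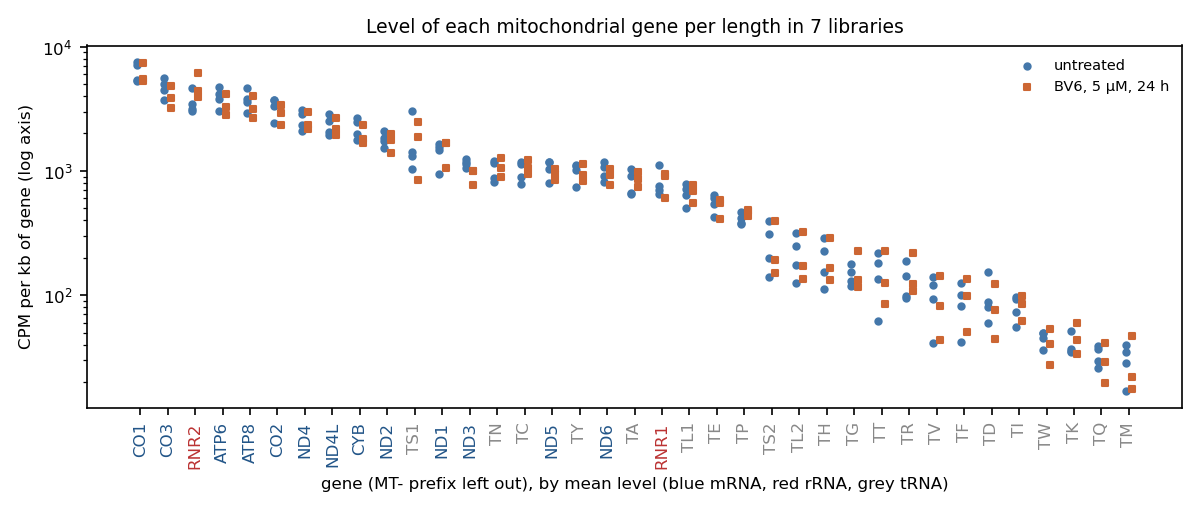
Level of each of the 37 mitochondrial genes as CPM per kb of gene on a log axis, with genes ordered by their mean over 7 libraries. Blue circles are the 4 untreated and orange squares the 3 BV6-treated libraries. MT-CO1 was highest with a mean of 6225 CPM per kb, MT-TM lowest with 29.5, and the points of both groups intermingle for nearly every gene.

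The nuclear genome holds copies of mitochondrial genes that can share reads with them. The count table listed 407 rows of such pseudogenes, which took 0.425% to 0.625% of all counts. The 3 with the most counts lie near each other on chromosome 1: MTCO1P12 at chr1:631074-632616, MTATP6P1 at chr1:633696-634376 and MTND2P28 at chr1:629640-630683. MTCO1P12 was 98.6% identical to MT-CO1 over 1543 bases, MTATP6P1 98.5% identical to MT-ATP6 over 681 bases and MTND2P28 98.4% identical to MT-ND2 over 1042 bases. The count of MTCO1P12 was 31.1% to 32.4% of that of MT-CO1 in the 7 libraries, nearly the same fraction each time. With the pseudogene counts added, the mean level was 8192 CPM per kb for MT-CO1, 4853 for MT-ATP6 and 2270 for MT-ND2, which placed MT-ATP6 above MT-CO3 (4842) and MT-RNR2 (4163), and MT-ND2 above MT-CYB. Which of these reads came from the mitochondrial genes was not tested, so these levels and their order are uncertain. 16 pseudogene rows were tested and none was called by edgeR's quasi-likelihood test, the replicate block or DESeq2, against 0.45%, 0.943% and 1.7% of all genes. At an unadjusted p below 0.05 by edgeR was 1 of 16, against 8.39% of all genes, so that share was not exceeded. This was MTRNR2L12, a nuclear copy of MT-RNR2 named after its values were seen, with a log2 fold change of 0.49 (edgeR adjusted p = 0.589) and a count of 0.860% to 1.02% of that of MT-RNR2.

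The share of each library that the mitochondrial genes took up was then compared between untreated and BV6-treated cells. Of all counts it was 4.19%, 3.52%, 4.72% and 3.14% in the untreated libraries of BC11, BC13, BC14 and BC25/27, and 3.58%, 4.78% and 3.23% in the BV6-treated libraries of BC13, BC14 and BC25/27. The mean was 3.89% ± 0.70 (SD, n = 4) without and 3.86% ± 0.81 (SD, n = 3) with BV6, and the groups overlapped. Libraries with different BC labels were further apart than the libraries of a pair: the untreated libraries spanned 3.14% to 4.72%, while BV6 exceeded its own untreated partner by 0.059, 0.062 and 0.089 percentage points. Counting error was at most 0.0054 percentage points on either side (95% Wilson interval, which covers counting error only and is too narrow if a fragment added more than 1 count). The difference of group means was -0.031 percentage points, and 0.070 without the unpaired BC11 library. No p was computed for shares, which are sums over the chosen genes. In bulk RNA such a share cannot tell fewer cells of a type from less RNA per cell.

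The small pair differences in the total were made up of opposite ones in the RNA classes. The mRNA share was 3.51%, 2.92%, 3.81% and 2.55% in untreated libraries and 2.75%, 3.63% and 2.52% with BV6, in the same order of BC labels. It was thus lower with BV6 in all 3 pairs, by 0.18, 0.18 and 0.033 percentage points. The rRNA share was 0.613%, 0.534%, 0.840% and 0.551% in untreated and 0.755%, 1.08% and 0.670% in BV6-treated libraries, which is 1.41-, 1.29- and 1.22-fold the paired value. Most rRNA counts were from MT-RNR2, with 6.87 to 10.8 times the counts of MT-RNR1 over the 7 libraries. MT-RNR1 alone, in CPM, was higher with BV6 in only 1 of 3 pairs. The tRNA share was far smaller, from 0.0433% to 0.0731% in untreated and 0.0458% to 0.0759% in BV6-treated libraries, and was higher with BV6 in 2 of 3 pairs. Among the respiratory complexes, the shares of complex III, complex IV and complex V were lower with BV6 in 3 of 3 pairs each, and that of complex I was higher in 1 of 3. In each of these sums the groups overlapped, and both BC14 libraries had the highest mRNA and rRNA shares of their group.

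**Figure D2:**
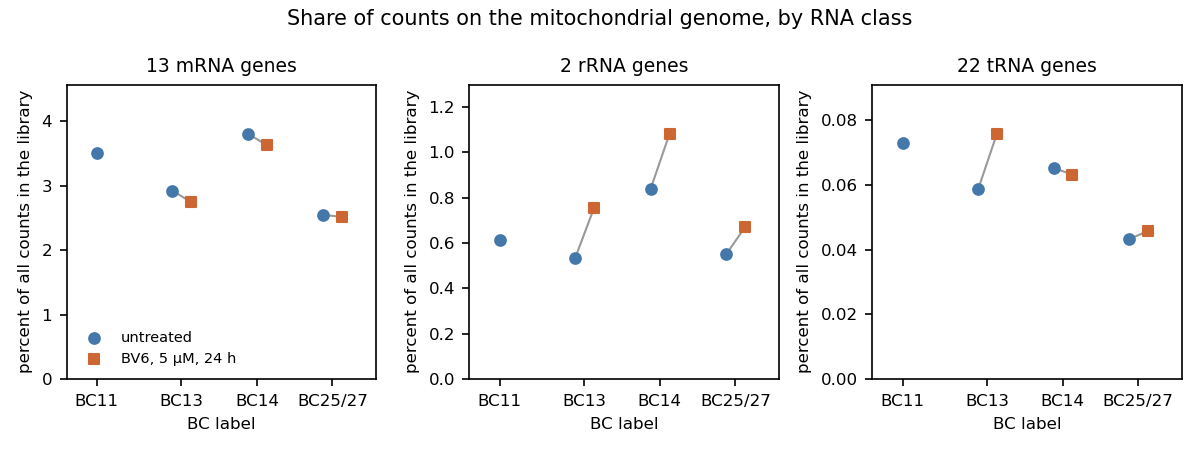
Percent of all counts in each library that fell on the 13 mRNA, 2 rRNA and 22 tRNA genes of the mitochondrial genome, by BC label, with grey lines joining the libraries that share it. Each panel has its own axis from 0. The mRNA share was lower and the rRNA share, mostly MT-RNR2, higher with BV6 in all 3 pairs. For mRNA the differences between BC labels were larger than those within them.

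Composition within the mitochondrial counts does not depend on library scaling. MT-RNR2 made up 12.9%, 13.3%, 15.6% and 15.6% of the mitochondrial counts in untreated libraries of BC11, BC13, BC14 and BC25/27, and 18.7%, 20.7% and 19.0% with BV6. Every BV6-treated library lay above every untreated one, with pair differences of 5.44, 5.14 and 3.41 percentage points. This share was singled out after its values were seen, so it is given as a description with no test. The mRNA genes made up 80.8% to 83.7% in untreated and 76.0% to 77.9% in BV6-treated libraries, again without overlap. In a composition the gain of a large component lowers the others, and the shares show unequal change only. Of the 37 genes, 5 did not overlap between the groups in counts relative to the mitochondrial total, against 3.72% of all 23124 tested genes scaled in the same way. The 2 shares cannot be compared. Variation of the mitochondrial total cancels for the 37 genes but is carried into the scaled counts of nuclear genes. In CPM, 1 of the 37 did not overlap, against 8.83% of all genes. The 5 genes were MT-RNR2, which was higher, and MT-ATP8, MT-ATP6, MT-CO3 and MT-CYB, which were lower with BV6. MT-CO3 made up 9.21% to 9.97% of the mitochondrial counts in untreated and 7.79% to 8.31% in BV6-treated libraries. MT-CYB made up 6.32% to 6.73% and 5.66% to 5.87%.

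Ratios between neighbors were compared with exact two-sided permutation tests, adjusted by Benjamini-Hochberg over 3 ratios; with 4 against 3 libraries the smallest possible p is 0.057. The ratio of MT-RNR2 to MT-RNR1 counts was 7.55, 7.06, 6.87 and 7.95 in untreated libraries of BC11, BC13, BC14 and BC25/27, and 7.88, 10.6 and 10.8 with BV6. It was higher with BV6 in all 3 pairs, but the BV6-treated BC13 library lay within the untreated range. The log2 difference of 0.39 did not pass the test (exact permutation p = 0.114, adjusted 0.342). MT-ND6 and MT-ND5 are read from opposite strands and meet at their ends, and their ratio was 0.257 to 0.293 in untreated and 0.262 to 0.289 in BV6-treated libraries (exact permutation p = 1.0). Per kb the ratio of MT-ND6 to MT-ND5 was 0.958 ± 0.052 (SD, n = 7). It is not known whether the counting used the strand, so the MT-ND6 row may hold reads of the heavy-strand transcript. This ratio therefore cannot compare the strands. MT-ATP8 and MT-ATP6, which share a transcript, had a ratio of 0.275 to 0.300 and 0.287 to 0.295 (exact permutation p = 0.629, adjusted 0.944). Per kb the ratio of MT-ATP8 to MT-ATP6 was 0.953 ± 0.027 (SD, n = 7) without pseudogene counts. With these added, the mean levels were 3775 CPM per kb for MT-ATP8 and 4853 for MT-ATP6. The genes also share 46 bases, and MT-ATP8 is only 207 bases long. Whether their levels are equal is therefore uncertain.

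**Figure D3:**
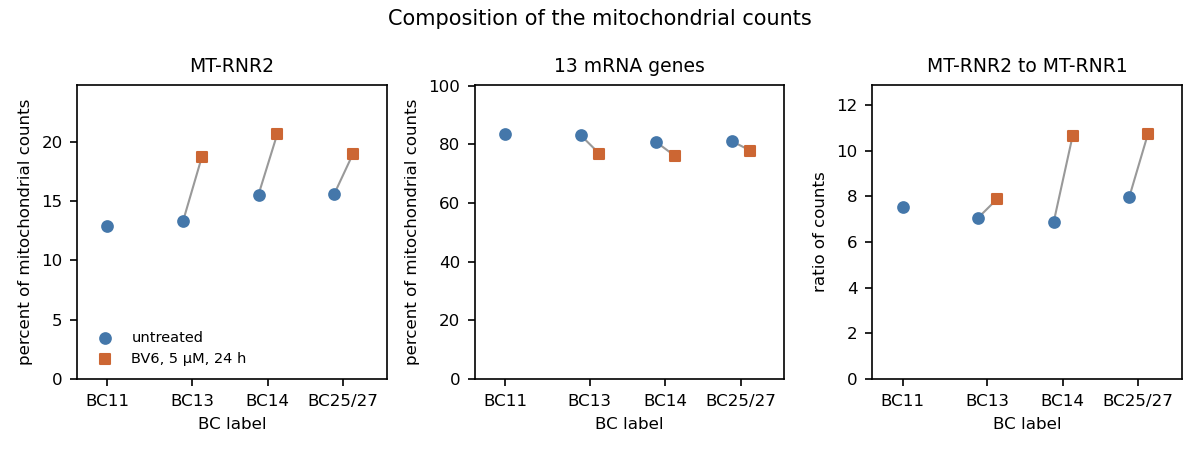
MT-RNR2 and the 13 mRNA genes as percent of the mitochondrial counts, and the ratio of MT-RNR2 to MT-RNR1 counts, by BC label, with grey lines joining the libraries that share it. Axes start at 0. MT-RNR2 made up 12.9% to 15.6% in the untreated and 18.7% to 20.7% in the BV6-treated libraries, and the ratio with BV6 lay above the highest untreated value of 7.95 in BC14 and BC25/27 but not in BC13.

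Single genes were tested for a difference between BV6-treated and untreated cells in a fit over all genes. None of the 37 genes was called by edgeR's quasi-likelihood test at a Benjamini-Hochberg adjusted p below 0.05, against 0.45% of the 23124 genes tested. None was called with the BC label as a block, where 0.943% of all genes were, or by DESeq2, where 1.7% were. At an unadjusted p below 0.05, edgeR listed MT-RNR2 and MT-ND3, 2 of 37 against 8.39% of all genes, DESeq2 listed MT-ND3 (8.82% of the genes that edgeR tested), and the blocked fit listed MT-RNR2, MT-ND3 and MT-CO3 (11.4% of all genes). 1 of 37 genes, MT-ND3, did not overlap between the groups in CPM, against 8.83% of all genes. In 36 of 37 genes the log2 range of the untreated libraries exceeded the mean difference within pairs, as it did in 90.6% of all genes.

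MT-RNR2, the large-subunit rRNA, was at 5424, 4723, 7282 and 4909 CPM in untreated libraries of BC11, BC13, BC14 and BC25/27, and at 6856, 9586 and 6157 CPM with BV6. The BV6-treated library was higher in 3 of 3 pairs, by 0.54, 0.40 and 0.33 on the log2 scale, while the untreated BC14 library exceeded the BV6-treated libraries of the other two pairs. The log2 fold change was 0.43 (SE 0.19, 95% interval 0.005 to 0.86, adjusted p = 0.59 by edgeR with Benjamini-Hochberg). With the BC label as a block the estimate was 0.42 (SE 0.079, 95% interval 0.24 to 0.60) and the adjusted p by edgeR was 0.0633, the lowest for any mitochondrial gene in any of the 12 alternatives. RNAs without a poly(A) tail were measured as a mark of the selection step. The 5 small RNAs (RN7SK, RN7SL1, RN7SL2, RMRP and RPPH1) summed to 31.5, 72.8, 93.6 and 167 CPM in untreated libraries of BC11, BC13, BC14 and BC25/27 and to 54.0, 43.1 and 182 CPM with BV6, higher with BV6 in 1 of 3 pairs. Replication-dependent histone genes summed to 57.3, 49.8, 69.9 and 54.1 CPM against 47.7, 40.8 and 54.8 CPM, also higher in 1 of 3. These 84 genes were taken by symbol, and 39 of them had a count of at least 3 in every library. Whether each of them lacks a poly(A) tail was not examined. The part of poly(A) selection in the MT-RNR2 values was not tested. MT-RNR1 was at 718, 669, 1060 and 617 CPM in untreated and 870, 902 and 573 CPM in BV6-treated libraries, with no common direction in the pairs (log2 fold change 0.03, 95% interval -0.45 to 0.51, adjusted p = 0.98 by edgeR).

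Of the 13 mRNA genes, 12 had a log2 fold change below 0, and 10 with the BC label as a block, where 52.3% of all genes lay below 0 without it. Their median was -0.15 and their range -0.31 to 0.07, against a median of -0.014 over all genes. 6 were lower with BV6 in all 3 pairs, where 17.8% of all genes were, and 1 was higher in all 3 pairs, where 15.5% were. The 13 share 2 precursors and their libraries, and so are not independent of each other. All 13 95% intervals lay within a log2 change of 1 in either direction, from -0.63 to 0.55, so a doubling or halving of any of them was outside its interval.

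Among the complex I subunits, which pass electrons from NADH to ubiquinone, MT-ND3 had the lowest fold change. It was at 405, 365, 431 and 392 CPM in untreated libraries of BC11, BC13, BC14 and BC25/27, and 345, 347 and 268 CPM with BV6. All BV6-treated libraries lay below all untreated ones, but the gap was narrow in BC13 (log2 difference -0.08) and wide in BC25/27 (-0.55). The log2 fold change was -0.31 (SE 0.12, 95% interval -0.58 to -0.05, edgeR adjusted p = 0.515, and 0.293 with the BC label as a block). MT-ND1 was the only mRNA with an estimate above 0, with 1407, 1484, 1568 and 906 CPM in untreated and 1605, 1610 and 1006 CPM in BV6-treated libraries. It was higher in all 3 pairs, by 0.04 to 0.15 on the log2 scale, less than the untreated range of 0.79. MT-ND2 was at 1929, 1804, 2197 and 1583 against 1832, 2056 and 1460 CPM, and MT-ND4 at 3932, 3215, 4259 and 2882 against 3255, 4128 and 3010 CPM. MT-ND4L, which shares its transcript and 7 bases with MT-ND4, was at 747, 611, 850 and 578 against 646, 789 and 574 CPM. Within pairs these 3 genes differed by at most 0.12 on the log2 scale. MT-ND5, the longest mRNA gene, was at 2128, 1872, 2146 and 1451 against 1715, 1884 and 1530 CPM. MT-ND6, the only mRNA of the light strand, was at 565.5, 482, 621 and 426 against 489.5, 544.5 and 401 CPM. Both had mixed directions in the pairs, with 1 of 3 higher. As the use of the strand in counting is not known, the MT-ND6 values cannot be taken as those of the light strand alone.

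MT-CYB, the cytochrome b of complex III, was at 2829, 2246, 3016 and 2020 CPM in untreated libraries of BC11, BC13, BC14 and BC25/27, and at 2070, 2686 and 1905 CPM with BV6. It was lower in 3 of 3 pairs, with a log2 fold change of -0.19 (SE 0.17, edgeR adjusted p = 0.799). In complex IV, the site of oxygen reduction, MT-CO1 was at 11070, 8319, 11610 and 8083 against 8186, 11410 and 8508 CPM. Its pairs differed by at most 0.07 on the log2 scale, the untreated libraries by up to 0.52. MT-CO2 was at 2563, 2278, 2544 and 1667 against 2015, 2323 and 1589 CPM, and MT-CO3 at 3950, 3540, 4403 and 2903 against 3042, 3801 and 2528 CPM. Both were lower in all 3 pairs, and the pair differences of MT-CO3 were alike at -0.22, -0.21 and -0.20 on the log2 scale. For MT-CO3 the log2 fold change was -0.24 (95% interval -0.63 to 0.14, edgeR adjusted p = 0.752), and with the BC label as a block -0.21 (95% interval -0.38 to -0.04, edgeR adjusted p = 0.315). The ATP synthase subunit MT-ATP6, part of the proton channel, was at 2858, 2580, 3224 and 2081 against 2235, 2812 and 1932 CPM. MT-ATP8 was at 785, 741, 968 and 605 against 657, 828 and 555 CPM. Both were lower in 3 of 3 pairs, with log2 fold changes of -0.21 and -0.19 (edgeR adjusted p = 0.78 and 0.809).

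**Figure D4:**
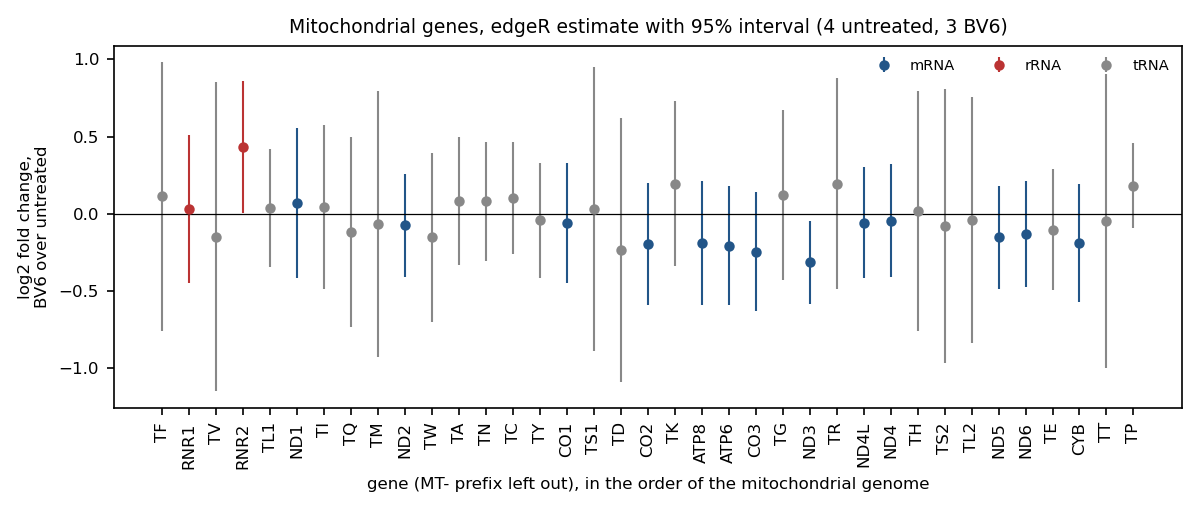
Log2 fold change of BV6 over untreated for the 37 mitochondrial genes in genome order, with the 95% interval of the edgeR fit (4 untreated and 3 BV6-treated libraries), colored by RNA class. MT-RNR2 at 0.43 and MT-ND3 at -0.31 are the only genes whose interval does not cross 0, and neither passed the adjusted threshold. The tRNA intervals are the widest and reach from -1.15 to 0.98.

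Of the 22 tRNA genes, 12 had a log2 fold change above 0 and 10 below, and with the BC label as a block 16 above and 6 below. The fit without the block gave a median of 0.02 and a range of -0.23 to 0.20, and its edgeR adjusted p ran from 0.744 to 0.993. Compared within pairs, 3 (MT-TR, MT-TH and MT-TP) were higher with BV6 in 3 of 3 and 1 (MT-TE) was lower in 3 of 3. MT-TS1, a serine tRNA, was at 208, 90.9, 98.4 and 71.2 CPM in untreated libraries of BC11, BC13, BC14 and BC25/27, and at 171, 130 and 57.9 CPM with BV6. Its pairs differed by 0.91, 0.40 and -0.30 on the log2 scale, and relative to its neighbor MT-CO1 it ranged from 0.681% to 2.08%. Reads of the heavy-strand stretch after MT-CO1, shown above, cannot be told apart from those of this tRNA. MT-TN, the asparagine tRNA, was at 84.4, 64.5, 88.3 and 59.4 against 92.4, 77.1 and 65.8 CPM. MT-TC, the cysteine tRNA, was at 75.3, 58.8, 78.1 and 52.2 against 80.5, 69.5 and 62.5 CPM. These light-strand neighbors moved together, higher with BV6 in BC13 and BC25/27 and lower in BC14.

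The untreated libraries spanned from 1.25-fold to 3.53-fold over the 22 tRNA genes, and at most 1.73-fold over the 13 mRNA genes. The cluster MT-TH, MT-TS2 and MT-TL2, whose sequence is given above and which was picked after its values were seen, was an example. MT-TS2 was at 18.3, 23.3, 11.7 and 8.31 CPM in untreated libraries of BC11, BC13, BC14 and BC25/27, and at 23.4, 11.4 and 8.92 CPM with BV6. Paired libraries were within 0.10 on the log2 scale, although the 7 libraries spanned 2.82-fold. Relative to the adjacent MT-ND4, the count of MT-TS2 was 0.465%, 0.724%, 0.275% and 0.288% in untreated and 0.719%, 0.277% and 0.296% in BV6-treated libraries. MT-TL2, on the other side of MT-TS2, spanned 2.56-fold over the 7 libraries, with pair differences also within 0.10. MT-TH, in contrast, was higher with BV6 in all 3 pairs, by 0.02, 0.11 and 0.24 on the log2 scale. The 2 libraries of BC13 thus held more of this cluster than those of BC14 and BC25/27, with either treatment. The deviations of paired libraries from their group means correlated over the mitochondrial genes with r = 0.79 in BC13, 0.63 in BC14 and 0.68 in BC25/27 (a description across 37 genes, which are not independent). Between libraries of different BC labels the mean r was -0.32, and the highest was 0.35, for untreated BC25/27 with BV6-treated BC14. Taking deviations from group means ties these values to the paired ones, so they are no independent reference. No value expected without pairing was computed for these correlations.

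**Figure D5:**
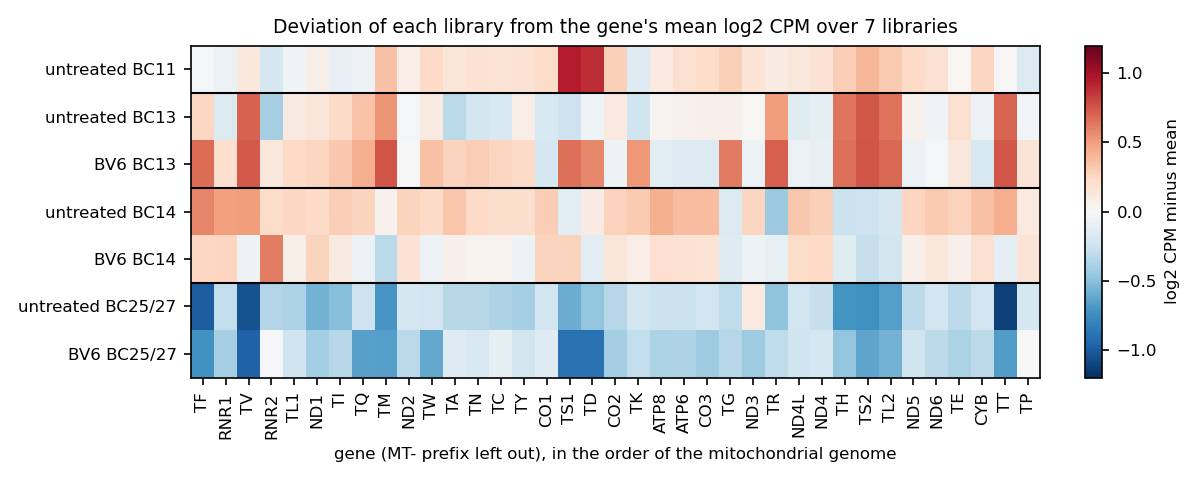
Log2 CPM of each mitochondrial gene in each library minus the mean of that gene over the 7 libraries, genes in genome order, libraries grouped by BC label with black lines between labels. Red is above and blue below the mean. Paired libraries resemble each other, BC25/27 lies below the mean for most genes, and in MT-RNR2 the BV6-treated library lies above its partner in all 3 pairs.

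Nuclear genes that copy mitochondrial DNA or transcribe, process and degrade mitochondrial RNA were examined next, together with 6 regulators of mitochondrial biogenesis. Of these 51 genes all were tested. None was called by edgeR's quasi-likelihood test, the replicate block or DESeq2, against 0.45% of all genes by edgeR. At an unadjusted p below 0.05 were 2 by edgeR, against 8.39% of all genes, and 4 by the blocked fit, against 11.4% (TWNK, POLG2, PPRC1 and KIAA0391, listed after their values were seen), so neither share exceeded that over all genes. 34 had a log2 fold change above 0 and 17 below, with a median of 0.056, against -0.014 over all genes. In transcription, the polymerase POLRMT was at 62.3, 50.4, 32.6 and 35.7 CPM in untreated and 46.1, 19.2 and 44.2 CPM in BV6-treated libraries (log2 fold change -0.31, 95% interval -1.02 to 0.40). Its initiation factors TFAM and TFB2M had log2 fold changes of 0.04 and 0.27, and the elongation factor TEFM 0.10. For RNA stability, LRPPRC and SLIRP, partners that protect mitochondrial mRNAs, had 0.17 and 0.02, and the poly(A) polymerase MTPAP 0.29 (95% interval -0.02 to 0.59). The nuclease PNPT1 and the helicase SUPV3L1, which degrade mitochondrial RNA together, had 0.10 and 0.29. In replication, the helicase TWNK had 0.40 (95% interval -0.01 to 0.81, edgeR adjusted p = 0.607) and the polymerase POLG -0.11. The coactivator PPARGC1A, a regulator of mitochondrial biogenesis, had 0.37 with a 95% interval of -0.62 to 1.37. The 2 genes at an unadjusted p below 0.05 by edgeR, named after their values were seen, were KIAA0391, the listed symbol of the tRNA-processing nuclease PRORP (0.27, edgeR adjusted p = 0.535), and PTCD2 (0.37, adjusted p = 0.577).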

How the data were processed

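RNA of RH30 cells was sequenced in 7 poly(A)-selected, stranded paired-end libraries. Per the methods and labels, the authors mapped reads to GRCh38 with STAR 2.6.1d and deposited raw counts per gene from a union model of Ensembl isoforms. The counting program and its use of strand and of multi-mapping reads are not given in the sources used here. The total count of every library exceeds the highest read number that the methods state, so a fragment may have added more than 1 count, and counting intervals may be too narrow.

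All genes were fitted with edgeR 4.0.16 in R 4.3.3 (filterByExpr with a minimum count of 10, TMM, glmQLFTest, condition only, all 7 libraries, Benjamini-Hochberg over 23124 genes, threshold 0.05). DESeq2 1.42.0, RLE factors, no filter, library sizes without mitochondrial genes, the BC label as a block and leaving out each library were alternatives. CPM used TMM-scaled library sizes, and levels per kb the gene lengths of GENCODE. Shares used all counts, with 95% Wilson intervals. Ratios were tested with scipy 1.17.1, and 3 pseudogenes aligned with blastn 2.17.0.

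The replicate number stands for the BC label, whose meaning is not stated, and was taken to pair libraries. Over all genes, deviations of paired libraries correlated with r = 0.52, 0.32 and 0.20 (pairs only, in the order of BC labels used above). With the unpaired BC11 library included, these values were 0.46, 0.44 and 0.085. In that version the libraries of the last pair were not closest to each other. Its BV6-treated library correlated more with untreated BC11 (0.28), and its untreated library more with BV6-treated BC14 (0.26). The study calls the samples biological replicates, but the labels name no separate cultures, so p-values measure the spread between these samples, which may be technical. Any of the 37 genes could be named, with values in every library for the mRNAs, the rRNAs and the 3 tRNAs with most counts, 12 genes of the machinery list, the 3 pseudogenes with most counts and BIRC3, and others were named where the text says that their values were seen first. The members and lists were chosen with earlier results of these data known.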

Additional observations from a re-analysis of the deposited data

Results flagged for a closer look

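Of 66 values examined in the 4 untreated libraries, 3 had 1 library far from the rest by Dixon's test at the 95% level (its ratio of gap to range is given in parentheses), where chance alone gives about 1 in 20. MT-TK, a lysine tRNA gene, was at 3.60 CPM in the untreated BC14 library and 2.458 to 2.596 CPM in the others (0.879). TFB2M was at 24.1 CPM in the untreated BC13 library and 12.8 to 13.7 CPM in the others (0.920). TWNK was at 59.5 CPM in the same library and 42.3 to 44.2 CPM in the others (0.886).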

How the results depend on the processing

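No mitochondrial, machinery or pseudogene row was called under any alternative. Over all genes, edgeR called 104, against 218 with the replicate block, 408 with DESeq2 and 242 with no filter on low counts, and 89 without the BV6-treated BC14 library and 38 to 65 without any other single library. 11 of 37 genes kept the sign of their log2 fold change in all 12 alternatives, MT-RNR2 (0.226 to 0.587), MT-ND3 (-0.373 to -0.202) and MT-CO3 (-0.404 to -0.110) among them when 1 library was left out. With the replicate block the sign turned for 6 of the 37 genes, MT-CO1 (0.00868), MT-ND4 (0.0118), MT-TY (0.0165), MT-TD (0.0018), MT-TS2 (0.0227) and MT-TL2 (0.0379), and for TFAM (-0.0403), SLIRP (-0.0239), MTCO1P12 (0.00145) and the log2 difference of the ratios MT-ND6 to MT-ND5 (-0.00492) and MT-ATP8 to MT-ATP6 (-0.00359), and the block changed no call of the named genes; the cause was not tested. With 1 library left out, the sign turned for MT-ND1 (-0.079 to 0.261), MT-ND2 (-0.185 to 0.0507), MT-CO1 (-0.221 to 0.0374), MT-ND4L (-0.186 to 0.0543), MT-ND4 (-0.184 to 0.0525), MT-RNR1 (-0.0817 to 0.227), MT-TS1 (-0.309 to 0.462), MT-TN (-0.0448 to 0.190), POLRMT (-0.512 to 0.00104), TFAM (-0.0644 to 0.173), SLIRP (-0.112 to 0.169), POLG (-0.277 to 0.0245), MTCO1P12 (-0.215 to 0.0212), MTND2P28 (-0.132 to 0.0881), and the ratios MT-ND6 to MT-ND5 (-0.0204 to 0.0575) and MT-ATP8 to MT-ATP6 (-0.00359 to 0.0396). For the tRNA genes this list is not complete: of the 22, only MT-TC and MT-TP kept their sign whichever library was left out. The difference of mean total share ran from -0.488 to 0.284 percentage points when 1 library was left out, and the rRNA share stayed higher with BV6 (0.0782 to 0.284). The share of MT-RNR2 in the mitochondrial counts and the levels with pseudogenes added were chosen after the data were seen; that difference was 4.52 to 5.55 percentage points without 1 library and 4.67 with pseudogenes. Counting error of the total share was at most 0.0054 percentage points, far below the spread between libraries.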
